A study of Homo sapiens with 16 samples.

Results

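The genes described are 35 genes of the lysosome in a human B cell line, taken by name from a table of 58051 Ensembl genes: the transcription factors TFEB and TFE3, 4 proteins of the lysosomal membrane, 19 enzymes of its lumen, 3 soluble cofactors and 7 genes of the vacuolar proton pump. Each symbol matched 1 Ensembl identifier. The rule uses names and no expression value, but the members were chosen with earlier results of these data known. Of the 35, 34 had a mean of at least 10 normalized counts over the 16 libraries and were tested. CTSL, the cysteine protease cathepsin L, was the exception, with 1 read in all 16 libraries together.

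The study asked how cells with different amounts of MYC respond to a block of N-myristoylation, the attachment of the fatty acid myristate to the N terminus of proteins by the NMT enzymes. P493-6 is a human B cell line, immortalised, whose MYC transgene is switched down by doxycycline and whose viral transactivator EBNA2 acts only when oestrogen is present. Cells with high MYC were kept in plain DMEM with serum, and cells with medium MYC in DMEM with 0.1 µg/mL doxycycline and 1 µM β-estradiol, from 24 h before treatment. Both were then given DMSO or IMP1088, an inhibitor of the NMT enzymes, at 100 nM for 24 h. The 4 groups (high MYC with DMSO, high MYC with IMP1088, medium MYC with DMSO, medium MYC with IMP1088) held 4 libraries each. MYC level, doxycycline and estradiol changed together and cannot be told apart, and all groups come from a single cell line. Nothing in the labels says that the replicates were separate cultures, so the p-values measure the spread between these libraries, which may be technical.

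Lysosomes are acidic compartments in which proteases, glycosidases, sulfatases and lipases break down material delivered by endocytosis and autophagy. The V-ATPase, built of a cytosolic V1 sector that hydrolyses ATP and a membrane V0 sector that carries protons, acidifies the lumen. TFEB and TFE3 enter the nucleus when mTORC1 is less active at the lysosome, bind a palindromic E-box known as the CLEAR motif in the promoters of many lysosomal genes, and raise their transcription. The core of that motif, CACGTG, is also the preferred E-box of MYC with MAX. B cells use lysosomal cathepsins to process antigen and the invariant chain of MHC class II.

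The promoters of the genes in which CACGTG was found are shown because this E-box is the sequence that TFEB, TFE3 and MYC share. RefSeq windows (GRCh38.p14, 250 bases before to 50 bases after a gene's start) were present for 22 of the 35 genes, and 8 of those 22 held CACGTG. The stretches read 5′ to 3′ on the gene's own strand and lie before the RefSeq start, with each CACGTG in capitals. Only 30 bases are shown for CTSA, CTSD and ATP6V0D1, where GENCODE 29 exons cover the stretch, and GENCODE exons cover the last 25 bases of the GAA stretch.
LAMP1 (chr13:113297039-113297238, plus strand): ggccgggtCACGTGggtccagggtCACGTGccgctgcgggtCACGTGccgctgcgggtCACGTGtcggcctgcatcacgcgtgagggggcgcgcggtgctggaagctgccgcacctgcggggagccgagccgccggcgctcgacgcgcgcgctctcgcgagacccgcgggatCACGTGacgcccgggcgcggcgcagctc
MCOLN1 (chr19:7522564-7522623, plus strand): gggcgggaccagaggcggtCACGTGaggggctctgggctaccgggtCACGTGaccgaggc
CTSA (chr20:45891287-45891316, plus strand): gactgtCACGTGgcgccggagttCACGTGa
CTSD (chr11:1763958-1763987, minus strand): cgccggccgcgccCACGTGaccggtccggg
GAA (chr17:80101491-80101580, plus strand): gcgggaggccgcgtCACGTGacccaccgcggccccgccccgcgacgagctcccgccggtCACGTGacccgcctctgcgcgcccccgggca
NEU1 (chr6:31862907-31862961, minus strand): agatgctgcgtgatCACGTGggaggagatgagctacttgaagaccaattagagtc
ATP6V0D1 (chr16:67481200-67481229, minus strand): gcccccttatggtCACGTGaggcgcttgcg
LAMP1 carried 6 copies in its window, of which the sixth crosses the start and is not fully shown. CD63 held 1 copy in 1 of its 8 windows, which is not shown. The longer CLEAR palindrome, CACGTG with GT before it and AC after it, was found in MCOLN1 and GAA. Both motifs are their own reverse complement, so one search covers both strands. Of all 35116 RefSeq windows of that length, 7.26% held CACGTG and 0.353% held the CLEAR palindrome. Among windows of genes tested here these shares were 9.62% and 0.724%, and among the 34 windows of the list 23.5% and 5.88%. Counted by gene, CACGTG was found in 12.9% of tested genes with a window and the CLEAR palindrome in 0.971%. The matching shares of the 22 genes were 36.4% and 9.09%. These are matches of letters and no measure of binding.

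Recovered reads ranged from 8755296 to 13858534 per library, and replicates of a group correlated at r of at least 0.9846 across genes. MYC itself separated the levels, at 31649 ± 2129.7 (SD, n = 4) normalized counts in high MYC with DMSO against 959 ± 48.7 (SD, n = 4) in medium MYC with DMSO; it was 47542 ± 505 (SD, n = 4) and 1382 ± 51.2 (SD, n = 4) with IMP1088, transgene and endogenous gene summed. All 8 B cell markers were present, with summed levels of 35233 to 44447 in high MYC libraries and 57437 to 67742 in medium MYC libraries, and 7 of the 8 were lower with IMP1088 at high MYC and 6 of 8 at medium MYC. Markers of other cell types were low, but their sums shifted with IMP1088. The 5 T cell markers summed to 62.9 to 71.5 with DMSO and 44.1 to 57.7 with IMP1088 at high MYC, and to 68.8 to 95.4 and 43.1 to 54.5 at medium MYC. The 7 monocyte markers summed to 41.4 to 64.8 and 50.5 to 64.4 at high MYC, and to 51.7 to 60.5 and 80.7 to 86.4 at medium MYC. The 6 fibroblast and epithelial markers summed to 64.8 to 77.5 and 68.8 to 94.6 at high MYC, and to 224 to 252 and 303 to 315 at medium MYC. FCN1, MARCO, DCN and KRT18 were at 0 throughout. The part of these shifts in the lysosomal results was not tested; in bulk RNA, fewer cells of a type and less RNA per cell cannot be told apart. High MYC DMSO replicate 1 and medium MYC DMSO replicate 3 deviated from their groups with the GC content of transcripts (r = 0.266 and 0.349 across genes). They are called the GC-tilted libraries here. High MYC DMSO replicate 3 deviated in the opposite direction (r = -0.226) and was kept in the fit without that pair. In both IMP1088 comparisons the log2 change leaned with GC (r = -0.15 and -0.16). Values after a GC correction, or without 1 or both of the GC-tilted libraries, are given beside the calls on the 35 genes that they change.

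The 35 genes together took 0.211% of reads at high MYC with DMSO and 0.203% with IMP1088, against 0.256% and 0.261% at medium MYC (means of 4 libraries, SD 0.00102 to 0.00335). Per kilobase of exon, PSAP, the precursor of the saposins that help enzymes reach glycosphingolipids, stood first in all 4 groups with 1169, 1124, 1313 and 1256 normalized counts per kb. GRN, the precursor of lysosomal granulins, stood second at high MYC (525 per kb with DMSO) at place 4 at medium MYC with DMSO (343) and at place 3 there with IMP1088 (362). At the lower end of the tested genes, MCOLN1, the lysosomal calcium channel, had 15.3 to 17.8 per kb over the group means. The order was similar between DMSO and IMP1088 and changed most between MYC levels. CTSH, an aminopeptidase among the cathepsins, went from place 29 at high MYC to place 5 at medium MYC in DMSO, and GAA, the acid alpha-glucosidase that degrades glycogen, from place 9 to place 29.

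**Figure D1:**
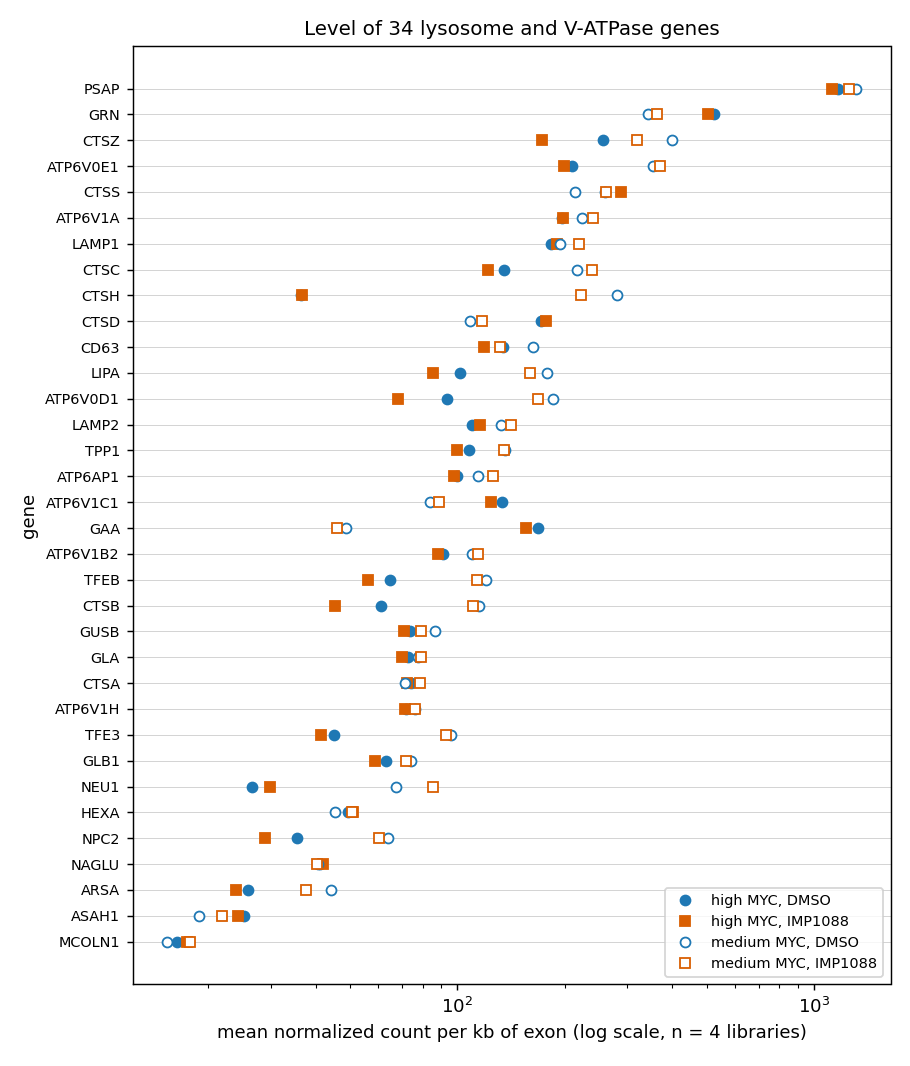
Mean normalized count per kb of exon (log axis) of the 34 tested genes, ordered by their mean over the groups; blue circles are DMSO and orange squares IMP1088, filled at high MYC and open at medium MYC. PSAP lies at the top in every group, and CTSH and GAA show the widest gaps between MYC levels, in opposite directions.

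Most of these genes differed between the MYC levels, and more of them were higher than lower at medium MYC. In DMSO, 21 of 34 genes rose and 7 fell from high to medium MYC by limma at an adjusted p under 0.05; LAMP1, MCOLN1, CTSA, GLA, NAGLU and ATP6V1H passed in neither direction. The background was wide: 76.2% of the 13765 genes tested passed, 38.9% higher and 37.3% lower, so that the 82.4% of the lysosomal genes is near the background. The median log2 change of the 34 was 0.23, against 0.02 over all genes tested. In 24 of the 34 the groups of 4 libraries did not overlap, 18 higher and 6 lower, where 69.2% of all genes had no overlap (35.6% higher, 33.6% lower). Of the 34, 4 passed with a change of 2-fold or more, where 3297 of all 13765 genes did. CTSH, NEU1 and TFE3 were higher and GAA was lower.

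**Figure D2:**
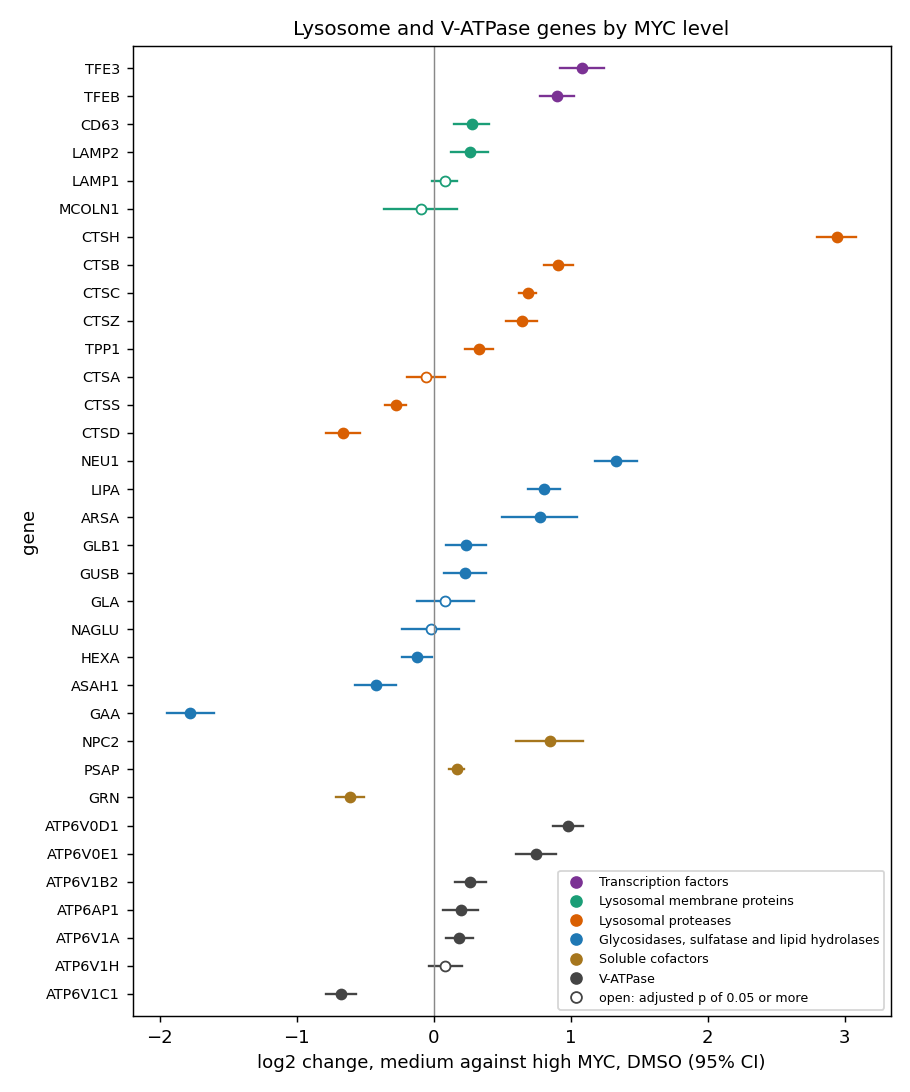
Log2 change of the 34 tested genes from high to medium MYC in DMSO (limma, 4 libraries per group), with 95% confidence intervals, grouped and coloured by role; open circles did not pass. CTSH at 2.94 and GAA at -1.78 mark the ends, and both transcription factors lie near 1.

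IMP1088 changed fewer of the genes, and none by 2-fold. Changes of that size were rare among all 13765 genes too, with 215 called at high MYC and 122 at medium MYC. At high MYC, 1 of 34 was higher (CTSS) and 7 were lower (TFEB, CD63, CTSB, CTSC, CTSZ, LIPA and ATP6V0D1) by limma. This share of 23.5% lies below the 26.8% of all tested genes that passed (10.5% higher, 16.3% lower). The median log2 change was -0.06 in the list and -0.02 over all genes. Groups did not overlap in 7 of the 34, 1 higher and 6 lower, and in 26.7% of all genes (10.9% higher, 15.8% lower). Under quantile normalization all genes shifted to an even split, 1727 higher and 1770 lower against 1442 and 2247, while the lysosomal genes were 1 higher and 5 lower. With the GC correction 3 were higher (CTSD and NEU1 were added) and 6 lower (TFEB and CD63 were lost, ATP6V1C1 added). Over all genes that correction gave 1650 higher and 2273 lower of 13694 tested.

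At medium MYC the inhibitor moved the list in both directions. By limma 6 of 34 were higher (LAMP1, CTSC, CTSS, HEXA, NEU1 and ASAH1) and 4 lower (CD63, CTSH, CTSZ and LIPA), a share of 29.4% against 26.3% of all genes (11.7% higher, 14.6% lower). The median was 0.02, against -0.01 over all genes. In 12 of the 34, 6 in each direction, the groups did not overlap, against 27.9% of all genes (12.4% higher, 15.4% lower). With the GC correction 11 were higher, the added genes being MCOLN1, CTSA, CTSD, GRN and ATP6AP1, and 4 lower. With equal library totals or quantile normalization the split was 7 higher to 3 lower. Without the pair of GC-tilted DMSO libraries it was 8 to 4. The counts of all genes moved too, from 1606 higher and 2012 lower to 1818 and 2085 with the GC correction. They were 1962 and 1658 with equal library totals, 1963 and 1876 under quantile normalization, and 1564 and 1850 without the pair. Of the 34 genes, CD63, CTSZ and LIPA passed as lower and CTSS as higher at both MYC levels, CTSC passed in opposite directions, and 21 passed at neither.

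The test of whether the inhibitor response differed between the MYC levels (response at high minus response at medium) called 4 of 34 genes, 11.8% against 8.63% of all genes (3.31% higher, 5.33% lower). CTSB, CTSC and ATP6V0D1 had the lower response at high MYC, and CTSH the higher. Of the 34 differences, 28 lay below 0, with a median of -0.10, against -0.02 for all genes, of which 53.7% lay below 0. That number was 26 to 29 under the other scalings, filters, pseudocounts and count models tried (32 to 35 genes tested), and 26 to 30 without single libraries. The difference rests on the same 16 libraries as both responses and is no further evidence of either.

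**Figure D3:**
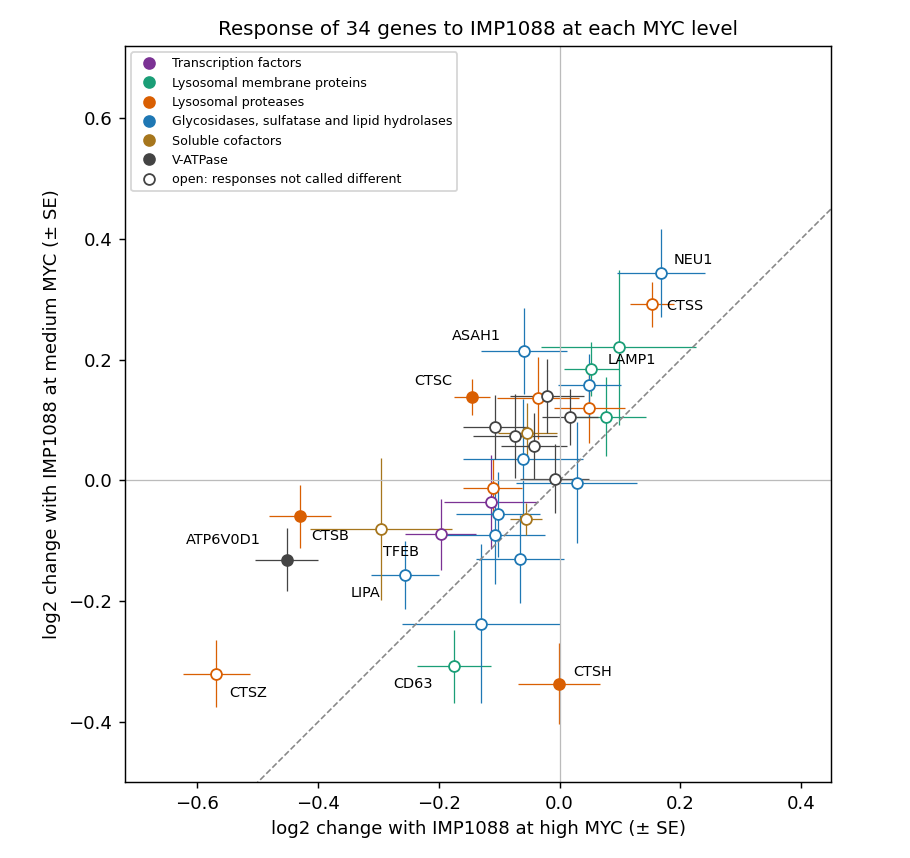
Log2 change with IMP1088 at high MYC (x axis) and at medium MYC (y axis) for the 34 tested genes, with standard errors (limma, 4 libraries per group); the dashed line marks equal responses and filled circles passed the test of their difference. CTSB, CTSC and ATP6V0D1 lie above the line and CTSH below it.

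TFEB (ENSG00000112561, GRCh38 chromosome 6:41683978-41736259, minus strand) and TFE3 (ENSG00000068323, chromosome X:49028726-49043486, minus strand) are the list's transcription factors, and both were higher at medium MYC. TFEB was read at 389, 396, 352 and 323 normalized counts in the high MYC DMSO libraries and at 681, 638, 724 and 682 in the medium MYC DMSO libraries. No library of one level reached the other, and the log2 change was 0.90 (SE 0.06, limma adjusted p = 6.73e-12). For TFE3 the same groups held 221, 179, 198 and 174, and 395, 356, 445 and 442. They did not overlap either, with a log2 change of 1.08 (SE 0.08, adjusted p = 3.10e-11). With IMP1088, TFEB at high MYC was 306, 314, 314 and 336. The highest of these lay above the lowest DMSO library, and the fall by 0.20 on the log2 scale (SE 0.06, limma adjusted p = 0.0164) was lost without high DMSO replicate 1 (adjusted p = 0.0603) or replicate 2 (adjusted p = 0.0713), under quantile normalization (adjusted p = 0.055), in a fit of the compared groups alone (adjusted p = 0.064) and with the GC correction (adjusted p = 0.0536). At medium MYC with IMP1088, TFEB was 641, 669, 629 and 621, within or just below its controls. TFE3 with IMP1088 was 174, 175, 189 and 172 at high MYC and 399.6, 410.3, 389.6 and 393 at medium MYC, inside or near the range of its controls. At medium MYC the TFEB log2 change was -0.09 (95% interval -0.21 to 0.03), and for TFE3 it was -0.11 (-0.28 to 0.05) at high and -0.04 (-0.20 to 0.13) at medium MYC, none of which passed. Neither factor passed the test of the difference of responses, at -0.11 (-0.28 to 0.07) and -0.08 (-0.31 to 0.15).

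**Figure D4:**
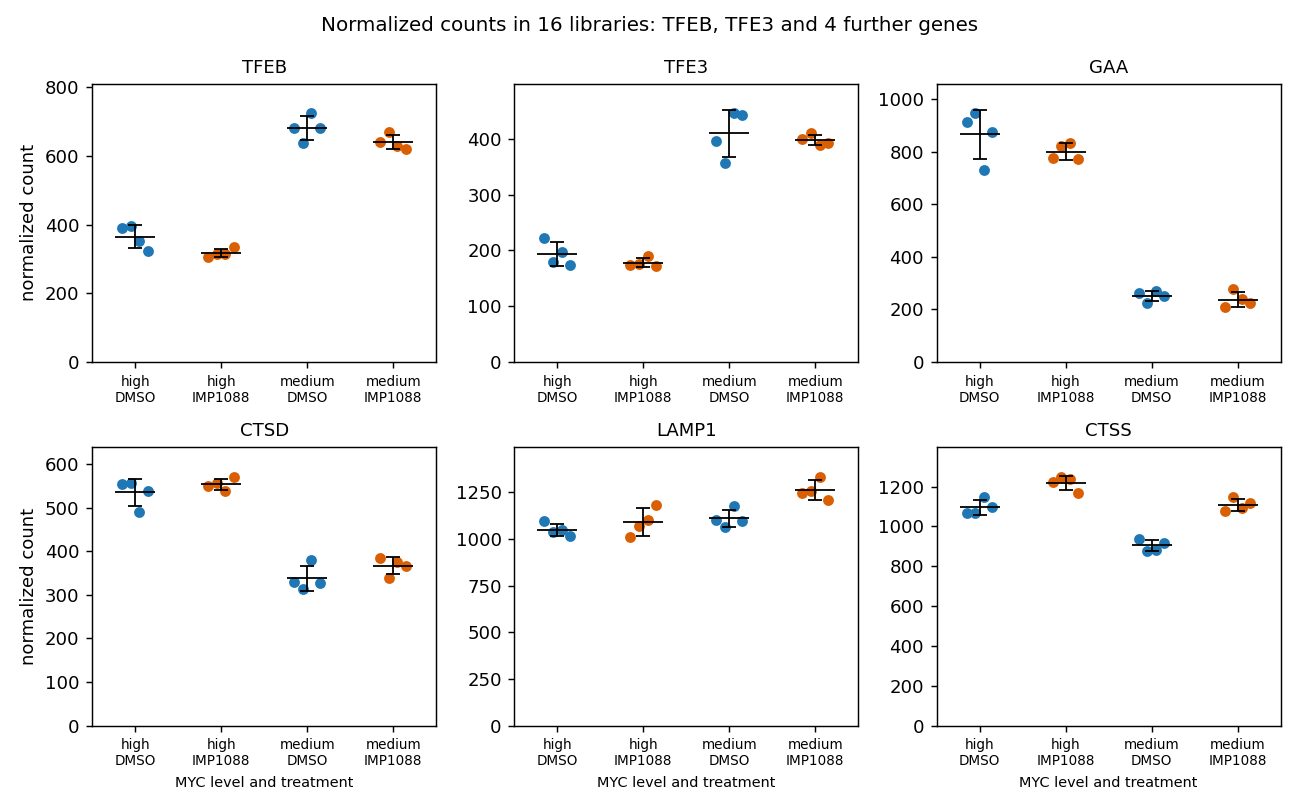
Normalized counts of TFEB, TFE3, GAA, CTSD, LAMP1 and CTSS in each of the 16 libraries (points), with group mean and SD (bars, n = 4); blue is DMSO and orange IMP1088. TFEB and TFE3 sit higher, GAA and CTSD lower, in all medium MYC libraries, and CTSS is higher with IMP1088 at both levels.

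Among the 4 membrane proteins, CD63, a tetraspanin of late endosomes and exosomes, was the one that fell with the inhibitor. At medium MYC it went from 462, 403, 404 and 446 with DMSO to 339, 357, 359 and 329 with IMP1088, without overlap (log2 change -0.31, SE 0.06, limma adjusted p = 5.92e-04). At high MYC it went from 336, 332, 379 and 367 to 305, 296, 335 and 315, with 1 treated library inside the DMSO range. That fall by 0.17 (SE 0.06, adjusted p = 0.039) was lost without high DMSO replicate 3 or 4, or IMP1088 replicate 1, 2 or 4 (adjusted p from 0.0624 to 0.116). It was also lost in 8 of the other alternatives, including edgeR (adjusted p = 0.0674), DESeq2 (adjusted p = 0.115) and the GC correction (adjusted p = 0.14). CD63 shares exon bases with AC009779.2 on the opposite strand, which rose by 0.52 at high MYC (limma adjusted p = 0.0241) from a mean of 45.0 to 65.4; the strand setting of the counting is not given in the sources used here, so reads of the pair cannot be told apart.

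LAMP1, an abundant glycoprotein of the lysosomal membrane and the gene with 6 E-boxes, rose with IMP1088 at medium MYC. Its values went from 1103, 1066, 1176 and 1097 to 1249, 1259.6, 1332 and 1209, so that the lowest treated library lay above the highest control (log2 change 0.18, SE 0.05, limma adjusted p = 0.00383). At high MYC the values were 1095, 1039, 1049.6 and 1018 with DMSO, and 1009.8, 1070.4, 1099.6 and 1184 with IMP1088, which overlap (0.05, 95% interval -0.04 to 0.15), and the difference of responses did not pass (-0.13, adjusted p = 0.239). Between MYC levels LAMP1 differed by 0.08 (-0.01 to 0.17), which did not pass. LAMP2, which takes part in chaperone-mediated autophagy, rose by 0.26 from high to medium MYC (SE 0.07, adjusted p = 0.00111) and did not pass with the inhibitor at either level (0.08 and 0.11). MCOLN1 gave 53.1 to 78.3 normalized counts over all 16 libraries, and shares exon bases on its own strand with PNPLA6, which had group means of 439.5 to 549.8; its intervals were wide, at -0.17 to 0.37 and -0.05 to 0.49 for the inhibitor. With the GC correction its change at medium MYC passed (0.32, adjusted p = 0.0444), and under quantile normalization its change from high to medium MYC did (-0.28, adjusted p = 0.0462).

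The cathepsins held the largest difference of the whole list and 3 of the 4 genes whose response was called different between the MYC levels. That is 37.5% of the 8 proteases tested, against 8.63% of all genes. With IMP1088, 4 of the 8 passed at each level (50%, against 26.8% of all genes at high and 26.3% at medium MYC). Between MYC levels 5 were higher and 2 lower at medium MYC (87.5% against 76.2%). CTSH (ENSG00000103811, chromosome 15:78921058-78949574, minus strand) was at 224, 208, 215 and 210.1 normalized counts at high MYC and at 1642, 1631, 1773 and 1575 at medium MYC in DMSO. All medium libraries exceeded all high ones, 7.68-fold on average (log2 change 2.94, SE 0.07, limma adjusted p = 7.55e-20). IMP1088 took CTSH to 1332, 1338, 1322 and 1247 at medium MYC, below every DMSO library (-0.34, SE 0.07, adjusted p = 6.72e-04). At high MYC the treated values of 238, 179.7, 207 and 238 surrounded the controls (-0.001, 95% interval -0.14 to 0.14). The difference of responses was 0.34 (SE 0.10, limma adjusted p = 0.0302) and close to the threshold. It was lost without high DMSO replicate 2 or 4, high IMP1088 replicate 1 or 4, medium DMSO replicate 1 or 3, or medium IMP1088 replicate 4 (adjusted p from 0.0504 to 0.0697, log2 difference from 0.28 to 0.34), with no filter (adjusted p = 0.0566) and with no mean trend (adjusted p = 0.0782).

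CTSB (ENSG00000164733), a cysteine protease with endo- and carboxypeptidase activity, fell with the inhibitor at high MYC. It was read at 453, 446, 434 and 485 with DMSO and at 339, 324, 370.0 and 317 with IMP1088. The highest treated library lay below the lowest control, and the mean was 1.35-fold lower (log2 change -0.43, SE 0.05, limma adjusted p = 1.88e-06). At medium MYC the values were 883, 812, 886 and 839.5, and 841, 799, 791 and 852. Here the groups overlapped (-0.06, 95% interval -0.17 to 0.05), and the difference of responses was -0.37 (SE 0.07, adjusted p = 0.002). In DMSO, CTSB was higher at medium than at high MYC by 0.91 (SE 0.05, adjusted p = 5.32e-13).

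CTSC (ENSG00000109861, chromosome 11:88293592-88337787, minus strand), the dipeptidyl peptidase that activates serine proteases of granules, moved in opposite directions. At high MYC it went from 1527, 1480.2, 1595 and 1566 to 1409.8, 1403, 1375 and 1386. At medium MYC it went from 2502, 2538, 2378 and 2499.6 to 2705, 2687, 2766 and 2753. Neither pair of groups overlapped. The log2 changes were -0.15 (SE 0.03, limma adjusted p = 8.96e-04) and 0.14 (SE 0.03, adjusted p = 0.00135), and their difference of -0.28 (SE 0.04, adjusted p = 1.04e-04) had the smallest p of the list. The changes are small, 1.11-fold lower and 1.10-fold higher, on a gene whose lowest library had 1375 normalized counts. Its level rose by 0.69 on the log2 scale from high to medium MYC in DMSO (SE 0.03, adjusted p = 5.07e-15).

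CTSZ, an exopeptidase encoded on chromosome 20 (58995185-59007247, minus strand), showed the largest response of the list at high MYC and fell at both levels. Its high MYC values were 502, 547, 509.9 and 528 with DMSO and 348, 345, 378 and 335 with IMP1088, 1.48-fold lower (log2 change -0.57, SE 0.06, limma adjusted p = 9.83e-08). At medium MYC they were 775, 793, 929 and 768, and 664, 659.6, 644 and 638 (-0.32, SE 0.06, adjusted p = 1.36e-04). Groups did not overlap at either level, though medium DMSO replicate 3, one of the GC-tilted libraries, stood above its group. The difference of responses was -0.25 (95% interval -0.41 to -0.09, adjusted p = 0.0521) and did not pass; without that library it was -0.31 (adjusted p = 0.00298), without both tilted libraries -0.33 (adjusted p = 0.00205), and with the GC correction -0.24 (adjusted p = 0.0191). It also passed without high DMSO replicate 1 (adjusted p = 0.0444) or high IMP1088 replicate 3 (adjusted p = 0.028), with equal library totals (adjusted p = 0.0297) and over genes with a mean of at least 100 (adjusted p = 0.0397).

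CTSS, the cathepsin that trims the invariant chain of MHC class II in B cells, rose with IMP1088 at both levels. It went from 1069, 1069, 1150.0 and 1099 to 1225, 1248, 1238 and 1167 at high MYC (0.15, SE 0.04, limma adjusted p = 0.00328). At medium MYC it went from 939, 877, 884 and 919 to 1077, 1146, 1091 and 1115 (0.29, SE 0.04, adjusted p = 2.92e-06). No treated library overlapped its controls, and the difference of responses did not pass (-0.14, 95% interval -0.25 to -0.03, adjusted p = 0.113). From high to medium MYC in DMSO its level fell by 0.28 (SE 0.04, adjusted p = 5.79e-07).

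**Figure D5:**
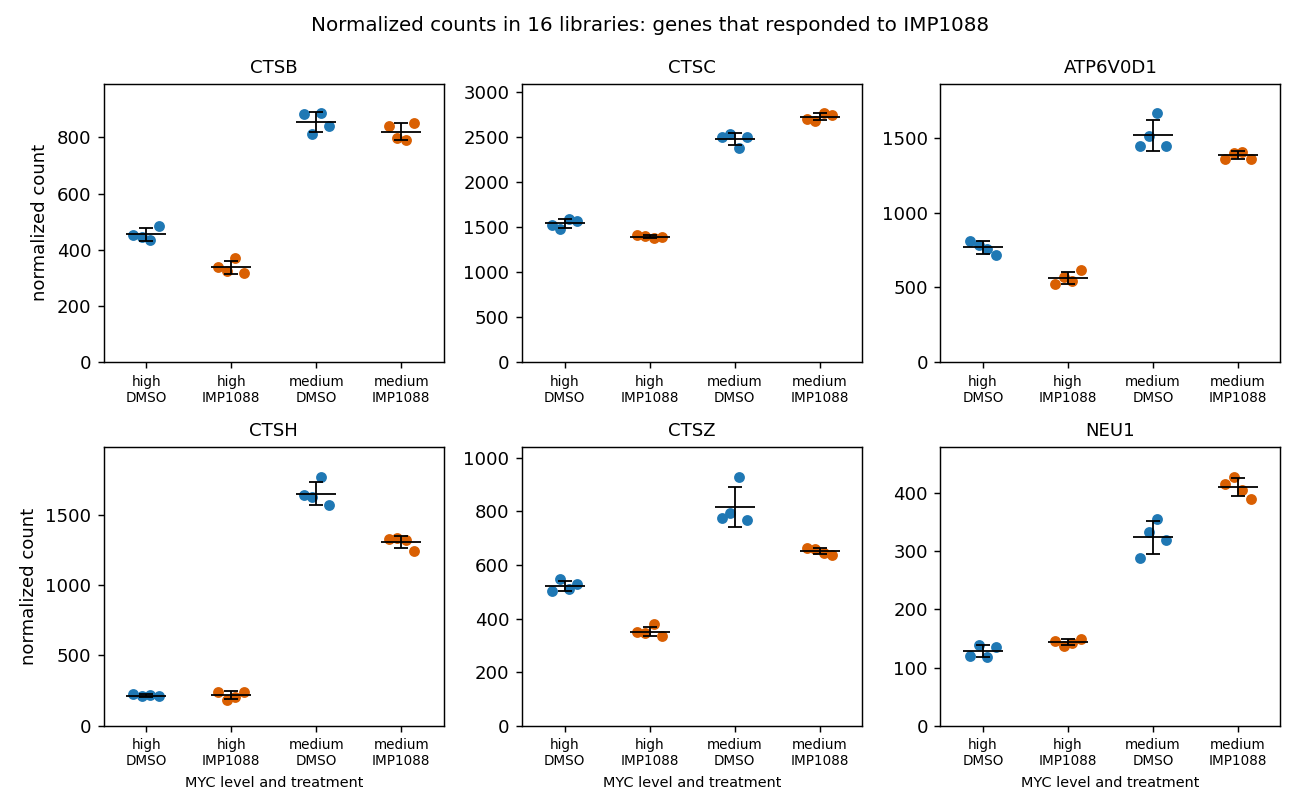
Normalized counts of CTSB, CTSC, ATP6V0D1, CTSH, CTSZ and NEU1 in each of the 16 libraries (points), with group mean and SD (bars, n = 4); blue is DMSO and orange IMP1088. CTSB and ATP6V0D1 drop with IMP1088 mainly at high MYC, CTSH at medium MYC, and CTSC drops at high and rises at medium MYC.

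CTSD, the main aspartic protease of the lysosome, was lower at medium MYC, with 555, 558, 491 and 539 normalized counts at high MYC and 331, 314, 379.8 and 327 at medium MYC in DMSO (log2 change -0.66, SE 0.06, limma adjusted p = 1.25e-09). Its inhibitor response did not pass at high (0.05, 95% interval -0.07 to 0.17) or medium MYC (0.12, -0.0027 to 0.24). At medium MYC it passed without medium DMSO replicate 3 (0.18, adjusted p = 0.0219) and with the GC correction (0.23, adjusted p = 0.00119), and at high MYC with the GC correction (0.14, adjusted p = 0.0447); 64.0% of its transcript bases are G or C. CTSA, the protective protein that keeps beta-galactosidase and neuraminidase stable, showed the same pattern at medium MYC, with 0.14 (adjusted p = 0.148) over all libraries, 0.21 (adjusted p = 0.0153) without that library and 0.23 (adjusted p = 0.00373) with the GC correction. CTSA shares exon bases with PLTP and NEURL2 on the opposite strand, which had means of 155 and 31.6 at high MYC in DMSO against 434 for CTSA. TPP1, a tripeptidyl peptidase, rose by 0.33 from high to medium MYC (SE 0.05, adjusted p = 2.32e-06) and did not pass with the inhibitor in the fit of all libraries (-0.11 and -0.01); at high MYC it passed without high DMSO replicate 4 (-0.14, adjusted p = 0.0391). CTSL had at most 1 read in a library. A gene with no read allows up to 3 reads, or 2.26 to 3.5 normalized counts depending on the library, counting error only, and 6 pseudogenes are named after it.

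The 10 glycosidases, sulfatase and lipid hydrolases split by MYC level, 5 higher and 3 lower at medium MYC, a share of 80.0% where 76.2% of all genes passed. NEU1 (ENSG00000204386, chromosome 6:31857659-31862906, minus strand), the lysosomal sialidase, was at 119.8, 139, 118 and 135 at high MYC and 288, 333, 356 and 319 at medium MYC in DMSO, 2.52-fold higher (log2 change 1.33, SE 0.07, limma adjusted p = 2.79e-13). GAA (ENSG00000171298, chromosome 17:80101556-80119879, plus strand) went the other way, from 911, 946, 732 and 874 to 262, 225, 269.5 and 249, 3.42-fold lower (-1.78, SE 0.08, adjusted p = 1.33e-14). The ranges of high and medium libraries were apart for both genes. Both promoters carry the E-box, GAA in the form of the CLEAR palindrome. Over the 8 genes with an E-box the log2 change between MYC levels ran from -1.78 to 1.33 (median 0.01, 3 higher and 2 lower). Over the 13 tested genes whose windows lacked it the range was -0.61 to 2.94 (median 0.64, 11 higher and 1 lower). Of all genes tested, 38.9% were higher and 37.3% lower. With IMP1088 the medians were 0.007 at high and 0.13 at medium MYC with an E-box, and -0.11 and -0.06 without. These are descriptions of small groups, with no test, and no match says only that these letters are not in these windows.

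With IMP1088, NEU1 gave the largest rise of the list at medium MYC, to 417, 428, 406 and 391, above all its controls (0.34, SE 0.07, limma adjusted p = 0.00109). At high MYC it was 146, 138, 142 and 149; these overlap the controls, and the change did not pass (0.17, adjusted p = 0.0964), though it did with the GC correction (adjusted p = 0.0405). The difference of responses was -0.18 (95% interval -0.39 to 0.04). GAA did not pass at either level (-0.11 and -0.09). ASAH1, acid ceramidase, rose at medium MYC from 314, 306, 248 and 291 to 349.5, 329.8, 335 and 326 (0.21, SE 0.07, limma adjusted p = 0.0296). Its lowest control was medium DMSO replicate 3, without which the change was 0.14 (adjusted p = 0.126). The call was also lost without both GC-tilted libraries (adjusted p = 0.125) and with no filter (adjusted p = 0.0518). The same held without medium DMSO replicate 4, or medium IMP1088 replicate 1 or 3 (adjusted p from 0.0513 to 0.0795). The difference of its responses was -0.27 (adjusted p = 0.105) and passed with the GC correction (-0.28, adjusted p = 0.028). HEXA, the alpha subunit of beta-hexosaminidase, rose by 0.16 at medium MYC (SE 0.05, adjusted p = 0.0292) and lost the call without medium DMSO replicate 4 (adjusted p = 0.112) or IMP1088 replicate 1 (adjusted p = 0.110), with no filter (adjusted p = 0.055) and with no mean trend (adjusted p = 0.0502). HEXA-AS1, whose exons overlap HEXA on the opposite strand, rose by 1.04 and 0.93 at high and medium MYC, at group means of 11.7 to 44.9 against 570.2 to 642 for HEXA.

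LIPA, the acid lipase that frees cholesterol and fatty acids from LDL, was higher at medium MYC and fell with the inhibitor. In DMSO it was at 489.6, 489, 499 and 523 at high MYC and 883, 859, 824 and 935 at medium MYC (0.81, SE 0.06, limma adjusted p = 2.17e-11). IMP1088 took it to 437, 441, 428 and 371 at high MYC, below all controls (-0.26, SE 0.06, adjusted p = 0.00167). At medium MYC the treated values of 732, 832, 760.4 and 816 overlapped the controls, and the fall by 0.16 (adjusted p = 0.0453) was lost when any 1 of 7 libraries was left out (high DMSO replicate 2, high IMP1088 replicate 3, medium DMSO replicates 1, 2 and 4, medium IMP1088 replicates 1 and 3; adjusted p from 0.0517 to 0.149) and under 5 of the other alternatives. In GENCODE 29 the exons of LIPA overlap those of IFIT2, an interferon-induced gene on the opposite strand, which rose by 2.33 from high to medium MYC in DMSO, from a mean of 131 to 659. The part of IFIT2 reads in the LIPA values was not tested.

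The remaining changes in this role were between MYC levels. ARSA, arylsulfatase A, rose from high to medium MYC by 0.77 (SE 0.13, limma adjusted p = 1.74e-05). GLB1, acid beta-galactosidase, rose by 0.23 (limma adjusted p = 0.00468) and GUSB, beta-glucuronidase, by 0.23 (adjusted p = 0.0073). GLB1 shares exon bases on its own strand with TMPPE, which had group means of 138.4 to 163.2 against 256.0 to 323.5 for GLB1. ASAH1 fell by 0.42 (SE 0.07, adjusted p = 1.59e-05). HEXA fell by 0.12 (adjusted p = 0.0406), a call lost without high DMSO replicate 1 or 3, or medium DMSO replicate 3 or 4 (adjusted p from 0.0549 to 0.156). It was also lost in 8 of the other alternatives, including the GC correction (adjusted p = 0.0935) and the fit without both GC-tilted libraries (adjusted p = 0.17). GLA, alpha-galactosidase A, and NAGLU, which removes N-acetylglucosamine from heparan sulfate, gave intervals of -0.12 to 0.29 and -0.23 to 0.19. With IMP1088, GLA, GLB1, GUSB, NAGLU and ARSA did not pass at either level, with log2 changes between -0.24 (ARSA at medium MYC, 95% interval -0.51 to 0.04) and 0.04 (GLA at medium MYC, -0.17 to 0.24). GUSB at medium MYC was -0.13 (adjusted p = 0.206), and passed at -0.20 (adjusted p = 0.0353) without medium IMP1088 replicate 3, which stood above its group.

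Of the 3 soluble cofactors, PSAP and NPC2 were higher and GRN was lower at medium MYC. PSAP went from a mean of 3785 ± 60.9 to 4254 ± 96.2 normalized counts (SD, n = 4; log2 change 0.17, limma adjusted p = 5.11e-06). NPC2, which carries cholesterol within the lumen, went from 97.7 ± 16.1 to 175 ± 14.0 (0.85, limma adjusted p = 1.16e-06). It shares exon bases with ISCA2 on the opposite strand, whose mean rose from 160.7 to 214.5 between the same groups (log2 change 0.42). The part of ISCA2 reads in the NPC2 values was not tested. GRN fell from 2034, 2073, 1775 and 1853 to 1219, 1243, 1377 and 1213, without overlap (-0.61, SE 0.05, adjusted p = 2.11e-10). None passed with IMP1088 in the fit of all libraries. All 4 treated libraries of PSAP lay below all controls at both levels, with log2 changes of -0.06 (adjusted p = 0.123) and -0.06 (adjusted p = 0.0784). GRN at medium MYC was 0.08 (adjusted p = 0.261), and 0.18 (adjusted p = 1.23e-04) with the GC correction; 61.8% of its transcript bases are G or C. The difference of its responses was -0.13 (adjusted p = 0.283), and with the GC correction it passed at -0.14 (adjusted p = 0.0372). NPC2 at high MYC was -0.30 (95% interval -0.54 to -0.05, adjusted p = 0.0687) and passed without high DMSO replicate 3 (adjusted p = 0.0384) or high IMP1088 replicate 3 (adjusted p = 0.017).

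Of the 7 V-ATPase genes, 5 were higher and 1 lower at medium MYC, 85.7% against 76.2% of all genes. With the inhibitor a single subunit, ATP6V0D1, passed at high MYC (14.3% against 26.8% of all genes). ATP6V0D1 (ENSG00000159720, chromosome 16:67438014-67481237, minus strand), the d subunit that joins the membrane sector to the central stalk, had 811, 785, 757 and 715 normalized counts at high MYC with DMSO and 522, 568, 539 and 615 with IMP1088. All treated libraries lay below all controls, 1.37-fold lower on average (log2 change -0.45, SE 0.05, limma adjusted p = 1.15e-06). At medium MYC the values were 1446, 1514, 1665 and 1448, and 1363, 1404, 1410.0 and 1359. These did not overlap, but the change of -0.13 (95% interval -0.24 to -0.02, adjusted p = 0.0703) did not pass in the fit of all libraries. It did in a fit of the compared groups alone (adjusted p = 0.0382) and without high IMP1088 replicate 4 (adjusted p = 0.0471). The responses differed by -0.32 (SE 0.07, adjusted p = 0.00722). Its level in DMSO was 1.98-fold higher at medium MYC (0.98, SE 0.05, adjusted p = 1.73e-13).

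ATP6V1C1, the C subunit that links the sectors and is released when the pump disassembles, was the V-ATPase gene that was lower at medium MYC. Its DMSO values were 756, 776, 859 and 737 at high and 484, 476, 479.6 and 515 at medium MYC, without overlap (-0.68, SE 0.05, limma adjusted p = 1.51e-10). ATP6V0E1, a small V0 subunit, was higher by 0.75 (SE 0.07, adjusted p = 2.71e-09). The catalytic ATP6V1A and its partner ATP6V1B2 were higher by 0.19 and 0.27, and the accessory subunit ATP6AP1 by 0.20. ATP6V1H, which couples ATP hydrolysis to transport, differed by 0.08 (95% interval -0.04 to 0.20) and did not pass. With IMP1088 the 6 subunits other than ATP6V0D1 had log2 changes from -0.11 to 0.02 at high MYC and from 0.003 to 0.14 at medium MYC, none of which passed in the fit of all libraries. ATP6V1A at medium MYC (0.10, adjusted p = 0.106) passed under quantile normalization (adjusted p = 0.0368) and without medium DMSO replicate 1 (adjusted p = 0.0463). ATP6V1C1 at high MYC (-0.11) passed with the GC correction (adjusted p = 0.033). The largest, ATP6AP1 at medium MYC (95% interval 0.01 to 0.27, adjusted p = 0.102), passed without medium DMSO replicate 3 (0.18, adjusted p = 0.0474), with equal library totals (adjusted p = 0.0394) and with the GC correction (adjusted p = 0.0148). All 7 differences of responses were below 0, and ATP6V0D1 alone passed; that of ATP6V1C1 (-0.19, adjusted p = 0.125) passed without medium IMP1088 replicate 2 (-0.25, adjusted p = 0.0316).

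Genes of the same pathway outside the 35 are given from 6 further lists, whose shares are set beside those of all genes: 26.8% with IMP1088 at high MYC, 26.3% at medium MYC, 8.63% for the difference and 76.2% between MYC levels. Differences of responses were called in 1 of 13 other V-ATPase subunits (7.7%), 3 of 28 other hydrolases (10.7%) and 1 of 22 other membrane proteins (4.5%). The same test called 0 of 12 delivery genes and 1 of 8 genes of the TFEB family and its control (12.5%). It called 3 of 12 autophagy genes (25.0%), which are described last. Of 13 other V-ATPase subunits tested, 2 were higher and 1 lower with IMP1088 at high MYC (23.1%) and 3 higher and 1 lower at medium MYC (30.8%). ATP6V0B, a subunit of the proton-carrying ring, rose at both levels (0.18 and 0.26, limma adjusted p = 0.00382 and 1.36e-04), as did ATP6AP2, the prorenin receptor (0.19 and 0.24, adjusted p = 0.0198 and 0.00407). TCIRG1, the V0 a3 subunit, fell by 0.49 at medium MYC (adjusted p = 2.31e-06) and by 0.17 at high MYC (adjusted p = 0.0405), with a called difference of responses of 0.32 (adjusted p = 0.0203). The high MYC call was lost in 14 of 30 alternatives, among them without high DMSO replicate 1 or 4 or IMP1088 replicate 1, 2 or 3 (adjusted p from 0.0591 to 0.149), and the difference was lost with no mean trend (adjusted p = 0.0614). ATP6AP2 lost its high MYC call without high DMSO replicate 1 (adjusted p = 0.0772) or IMP1088 replicate 1 (adjusted p = 0.0708) or 3 (adjusted p = 0.051), and without both GC-tilted DMSO libraries (adjusted p = 0.073). Between MYC levels 5 of these 13 genes were higher and 5 lower (76.9%), with TCIRG1 at 1.07 and ATP6V1F at -0.49 at the ends.

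Among 28 other lysosomal hydrolases, 18 were higher and 5 lower at medium MYC (82.1%). SMPD1, acid sphingomyelinase, rose by 2.48 (group means 18.8 and 111) and PPT1, palmitoyl-protein thioesterase, fell by 1.21 (1429 and 620). HYAL2 fell further, by 1.36. With IMP1088, 1 was higher and 5 lower at high MYC (21.4%), and 2 higher and 7 lower at medium MYC (32.1%). ACP5, an acid phosphatase, fell by 0.62 at high and 0.23 at medium MYC (limma adjusted p = 5.18e-07 and 0.0141). GM2A, the cofactor for ganglioside breakdown, fell by 0.46 and 0.18 (adjusted p = 4.26e-09 and 9.36e-04). Their differences of responses also passed, at -0.39 and -0.29 (adjusted p = 0.0116 and 7.57e-04; for ACP5, 1 of 29 alternatives lost the call, with a highest adjusted p of 0.0539). NAAA, an acid amidase, fell by 0.47 at medium MYC (adjusted p = 2.56e-04) and was at -0.06 at high MYC; the call of their difference (adjusted p = 0.0376) was lost in 16 of 29 alternatives, 11 of them the loss of a single library (all but high DMSO replicates 2 and 4, high IMP1088 replicate 4, and replicate 2 of both medium MYC groups).

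Of 22 other membrane proteins, 11 were higher and 8 lower at medium MYC (86.4%). LAMP3, a LAMP family member of mature dendritic cells, had 0 to 2 reads per library at high MYC with DMSO and 217 to 259 at medium MYC, at least 70.5-fold higher when each high MYC library is set to a floor of 3 reads. SCARB2, the receptor that carries glucocerebrosidase to lysosomes, fell by 1.56 (limma adjusted p = 3.30e-12), and ABCA2 by 1.575. With the inhibitor 4 were lower at high MYC (18.2%), and 3 higher and 5 lower at medium MYC (36.4%). CLN3 fell at both levels (-0.34 and -0.33, adjusted p = 0.00196 and 0.00227). The largest called rises at medium MYC were those of LAPTM4A and SPNS1, at 0.35 and 0.34. CLCN7, the chloride-proton exchanger, rose there by 0.30 (adjusted p = 1.27e-05). Its difference of responses passed at -0.21 (limma adjusted p = 0.028), a call lost in 10 of 29 alternatives. Of 12 genes for enzyme delivery, 3 were higher and 6 lower at medium MYC (75.0%). IMP1088 lowered 4 of them at high MYC (33.3%), and at medium MYC it lowered 2 (16.7%). CLN6 was lower at both levels (-0.29 and -0.21; the second was lost without medium DMSO replicate 3, adjusted p = 0.0788, or IMP1088 replicate 1, adjusted p = 0.0795, and without both GC-tilted libraries, adjusted p = 0.077). The other medium MYC call, GGA2, a sorting adaptor (-0.07, limma adjusted p = 0.0369), was lost in 15 of 30 alternatives, with a highest adjusted p of 0.236. Its relative GGA1, lower at high MYC (-0.15, adjusted p = 0.0129), was lost under quantile normalization (adjusted p = 0.0763), with the GC correction (adjusted p = 0.278) and without high DMSO replicate 2 (adjusted p = 0.0509). LGMN (legumain) was the 1 other hydrolase called higher at high MYC, and ABCA2 was 1 of the 4 membrane proteins called lower there. These high MYC calls were lost in 7 and 15 of 30 alternatives (highest adjusted p of 0.117 and 0.224). At medium MYC limma also called both genes, LGMN higher with a log2 change of 0.28 and ABCA2 lower with -0.27. GGA2, GGA1, LGMN and ABCA2 fell under the naming rule of up to 2 called genes per direction. The losses of their calls were described after their values were seen.

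Of 8 genes of the TFEB family and its control, 5 were higher and 1 lower at medium MYC (75.0%), and with IMP1088 2 were lower at high MYC (25.0%), and 1 higher and 2 lower at medium MYC (37.5%). MTOR, the kinase that holds TFEB in the cytosol, fell by 0.11 at high MYC (limma adjusted p = 0.00804), was at 0.05 at medium MYC, and had a called difference of -0.16 (adjusted p = 0.0213). The difference was lost without high DMSO replicate 2 or medium DMSO replicate 1 or 4 (adjusted p from 0.0508 to 0.0547) and with no mean trend (adjusted p = 0.0567), and the fall at high MYC under quantile normalization (adjusted p = 0.109). YWHAZ, a 14-3-3 protein of the family that binds phosphorylated TFEB, fell by 0.16 at high and 0.16 at medium MYC (adjusted p = 0.00333 and 0.00224). RRAGD, a Rag GTPase, fell by 0.27 at medium MYC (limma adjusted p = 1.77e-04). FNIP1, the 1 gene of this list called higher at medium MYC, rose by 0.26.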

How the data were processed

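RNA of 16 libraries of the P493-6 line was sequenced on an Illumina HiSeq. The submitters' processing notes name STAR 2.5.2a, RSEM 1.2.31, DESeq2 1.16.1 and GRCh38; the annotation and strand setting are not given in the sources used here. The authors deposited a signal per gene, normalized counts, here found to be reads divided by a size factor: 100% of values were whole multiples of the value of 1 read (tolerance 1e-06). Gene symbols came from GENCODE 29 for 56948 of 58051 identifiers, and promoters from RefSeq.

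Values were tested as log2(value + 1) with limma 3.58.1 (R 4.3.3), using a mean trend, 4 group means and Benjamini-Hochberg adjustment over 13765 genes, those averaging at least 10; an adjusted p under 0.05 passed. Fold changes are on that log2 scale. On the recovered reads, edgeR 4.0.16 and DESeq2 1.42.0 served as alternatives; edgeR called 1587 genes higher and 2116 lower for IMP1088 at high MYC, 1857 and 2001 for IMP1088 at medium MYC, 451 and 768 for the difference, and 5331 and 5225 between MYC levels. The steps were tested on simulated data. TFEB, TFE3 and, per comparison, the 4 called members with the largest change in each direction (for the difference, the 6 with the smallest p) at a mean of at least 50 got values by library; other lists gave up to 2 called genes per direction. The members and lists were chosen with earlier results of these data known.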

Additional observations from a re-analysis of the deposited data

Results flagged for a closer look

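The responses to IMP1088 differed between MYC levels in 4 genes by limma's test of the difference, high minus medium MYC: CTSB at -0.371, CTSC at -0.283, ATP6V0D1 at -0.32 and CTSH at 0.336 on the log2 scale. In 7 of 136 groups of 4 libraries, 1 library stood apart from the other 3, a gap that chance gives in about 1 group in 20. CTSZ had 928.5 normalized counts in medium MYC DMSO replicate 3, against 768.1 to 792.8 in the other libraries of that group. GUSB had 366.6 in medium MYC IMP1088 replicate 3, against 297.5 to 301.7. In the high MYC DMSO group, ARSA had 66.26 in replicate 2 (others 78.33 to 79.35) and ASAH1 had 415 in replicate 3 (others 375.8 to 380.7). ATP6V1B2 had 822.2 in that same replicate 3 (others 670.3 to 680.6), and ATP6V0E1 had 306.2 in replicate 4 (others 347.7 to 354.9). ATP6V1H had 353.4 in high MYC IMP1088 replicate 4, against 363.8 to 364.8.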

How the results depend on the processing

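No called result changed direction under any alternative run. Between MYC levels, 20 to 21 genes were higher and 6 to 7 lower under all alternatives. With the GC correction, 3 genes were higher with IMP1088 at high MYC and 11 at medium MYC, and 6 differences of responses were lower. With the GC correction and the replicate block these counts were 2, 10 and 5. Over all genes the same counts were 1442, 1606 and 733 in the main fit and 1650, 1818 and 957 with the GC correction. With the replicate block added they were 1547, 1744 and 862. The cause of these shifts was not tested. With no filter and with no mean trend 0 differences were higher at an adjusted p under 0.05 by limma and 1, CTSH, at an unadjusted p under 0.05, where edgeR and DESeq2 called 1. Leaving out single libraries gave 1 higher and 6 to 8 lower for IMP1088 at high MYC, 4 to 8 and 3 to 5 for IMP1088 at medium MYC, 0 to 1 and 3 to 4 for the difference, and 21 and 6 to 7 between MYC levels. Without both GC-tilted DMSO libraries, an alternative chosen after seeing the data, the counts were 1 and 7, 8 and 4, 1 and 4, and 21 and 6. The replicate numbers did not pair the libraries: same-numbered libraries of compared groups correlated at a mean r of -0.0715 (high MYC), -0.0235 (medium MYC) and 0.0243 (between levels), and 0, 1 and 1 of 4 matched their own number best. With the replicate block, 1 gene was higher and 7 lower for IMP1088 at high MYC, 6 and 3 for IMP1088 at medium MYC, 1 and 3 for the difference, and 21 and 6 between levels. Among all genes, calls at medium MYC went from 1606 higher and 2012 lower to 1962 and 1658 with equal library totals. The depth limits MCOLN1 and ARSA most, the tested members with the fewest counts.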

Other observations

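Autophagy genes that TFEB is known to control were described apart from the lysosomal genes. Of 12 tested, 8 were higher and 2 lower at medium than at high MYC in DMSO (83.3%, against 76.2% of all genes). With IMP1088, 2 were higher and 1 lower at high MYC (25.0% against 26.8%), and 4 were higher at medium MYC (33.3% against 26.3%). One of the 2 higher at high MYC was BECN1 (0.14, limma adjusted p = 0.0493), a subunit of the kinase complex that starts autophagosomes. Its call was lost in 19 of 30 alternatives, with a highest adjusted p of 0.179. BECN1 fell under the naming rule, and this loss was described after its values were seen. There were 3 called differences of responses (25.0% against 8.63%), all lower at high MYC. SQSTM1, the autophagy receptor p62, had 780.2, 753, 840.1 and 725 normalized counts at medium MYC with DMSO and 1029, 1077, 1121 and 1072 with IMP1088, without overlap (0.47 on the log2 scale, limma adjusted p = 1.56e-07). At high MYC its change was 0.03 (95% interval -0.07 to 0.13), and the responses differed by -0.44 (adjusted p = 1.37e-04). WIPI1, which binds phosphoinositides on forming autophagosomes, rose by 0.59 at medium MYC (adjusted p = 0.00276), was at -0.23 at high MYC (-0.52 to 0.06), and differed by -0.82 (adjusted p = 0.00911). MAP1LC3B, the LC3 protein of autophagosome membranes, rose at both levels, by 0.34 and 0.35 (adjusted p = 1.63e-05 and 1.32e-05).

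CD68, a membrane glycoprotein of late endosomes, fell with IMP1088 by 1.10 at high and 0.76 at medium MYC (limma adjusted p = 4.47e-04 and 0.0094), at group means of 22.9, 10.6, 100.0 and 59.1 in the order high DMSO, high IMP1088, medium DMSO and medium IMP1088. It was named after its values were seen, since its mean over the libraries lies under 50. These fits are those of the report and share its libraries.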
